A study of Mus musculus with 14 samples.

Results

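The kinesin and dynein motor genes described here were the genes of the expression tables whose symbols begin with Kif, Klc, Dync or Dctn followed by a digit, or with Dynl. The choice used gene names alone and no measured value. It gave 59 of 19215 genes. Their cassette exons, which are exons that can be skipped between 2 neighbours, filled 70 of 13189 entries of the exon tables. These 70 entries were 66 distinct exons of 29 genes, because an exon was listed again for each pair of partner exons.

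Kinesins are motors that mostly carry organelles, vesicles and RNA towards the plus ends of microtubules, which in an axon means away from the cell body. Cytoplasmic dynein moves cargo the other way, and the dynactin complex keeps it processive and links it to cargo. Motoneurons (MNs) have some of the longest axons in the body and depend on both directions of transport. NOVA proteins are neuronal RNA-binding proteins that recognise clusters of the 4-base word YCAY, in which each Y is C or T (TCAT is an example, TCAC another, CCAT the next and CCAC the last), and are known to control the inclusion of alternative exons from nearby intronic sites.

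NOVA binding was measured by HITS-CLIP, in which protein and RNA are crosslinked by UV light, the protein is precipitated and the attached RNA fragments are sequenced as tags. MN CLIP came from BAC lines #6 and #17, hemizygous for Chat:GFP-Nova in C57BL/6 at 3 months of age, with 4 libraries a line. The *Chat* promoter, active in cholinergic neurons, drives the tagged NOVA2 there, and each library was made from pooled spinal cords with antibodies against GFP. Whole spinal cord (WSC) CLIP used 4 wild-type C57BL/6 cords of the same age and a serum against NOVA itself. RNA levels and exon inclusion came from 2 WSC RNA-seq libraries, 1 male and 1 female mouse of 12 weeks with the Tg(SOD1)2Gur/J transgene for human wild-type SOD1 on a B6/SJL background, so these mice share neither strain nor transgene with the CLIP mice. MN and WSC CLIP therefore differ at once in cells, protein, antibody, pooling and depth, and these cannot be told apart. Replicates 1 and 2 of both MN lines also carry a shorter form of the 5′ barcode, which no WSC library has, whereas replicates 3 and 4 carry the WSC form. In such bulk samples, a smaller number of cells of a type and less RNA per cell cannot be told apart either.

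The MN libraries held 65961 to 871804 unique tags and the WSC libraries 2213104 to 6095995. Tags in annotated exons made up 33.4 to 46.4% of gene tags in MNs and 60.9 to 66.2% in WSC, so the 2 groups did not overlap in this share. The RNA-seq libraries held 72006019 (male) and 65625173 (female) reads on genes. Marker genes of cell types were checked against the labels. The 3 tested motoneuron markers of 7 were all higher in MN CLIP, with *Chat* at a log2 difference of 3.04, *Chodl* at 2.45 and *Slc5a7* at 2.19, and all 4 inhibitory interneuron markers were lower. Of 3 astrocyte markers 2 were lower, and none of the 3 oligodendrocyte markers was called. *Slc17a6*, the 1 excitatory interneuron marker tested, was lower, and *Snap25*, 1 of 2 neuron markers tested, was higher. Of 4 ependyma and cilia markers 3 were tested, with a median log2 difference of 0.84. Among them *Dnahc9* was called higher in MN CLIP, which the MN label does not predict.

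The sequences below are the short cassette exons on which the splicing results turn, with the exon in capitals and 12 intronic bases on each side, read 5′ to 3′ from the mm9 genome. The first pair shows equivalent exons of *Kif1a* and *Kif1b*, and the second pair those of *Dync1i1* and *Dync1i2*.
*Kif1a*, 27 nt, chr1:94931123-94931149, minus strand: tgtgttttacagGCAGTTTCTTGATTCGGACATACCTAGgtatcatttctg
*Kif1b*, 27 nt, chr4:148569582-148569608, minus strand: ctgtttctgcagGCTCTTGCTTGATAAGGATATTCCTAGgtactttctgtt
*Dync1i1*, 60 nt, chr6:5734439-5734498, plus strand: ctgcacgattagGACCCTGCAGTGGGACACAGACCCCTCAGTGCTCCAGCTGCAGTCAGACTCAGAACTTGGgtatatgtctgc
*Dync1i2*, 60 nt, chr2:71071706-71071765, plus strand: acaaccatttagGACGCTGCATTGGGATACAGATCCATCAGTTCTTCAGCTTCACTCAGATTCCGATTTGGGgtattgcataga
*Kif1a*, 27 nt, chr1:94962129-94962155, minus strand: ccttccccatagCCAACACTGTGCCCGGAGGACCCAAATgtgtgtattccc
*Kif21a*, 21 nt, chr15:90795406-90795426, minus strand: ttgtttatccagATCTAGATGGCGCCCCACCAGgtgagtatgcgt
*Dync1i2*, 18 nt, chr2:71065884-71065901, plus strand: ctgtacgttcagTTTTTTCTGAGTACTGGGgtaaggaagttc
*Dctn1*, 15 nt, chr6:83147313-83147327, plus strand: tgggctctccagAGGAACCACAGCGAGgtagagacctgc

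The next sequences are the 100 nt of intron that held most MN tags, with the YCAY words in capitals. The first 3 lie beside cassette exons, and the last pair lies in the genes with the largest excess of MN tags.
*Kif1a*, after the first 27-nt exon above, chr1:94930917-94931016, minus strand: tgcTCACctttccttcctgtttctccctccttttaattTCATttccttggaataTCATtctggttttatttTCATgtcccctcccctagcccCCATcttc
*Kif21a*, after a 108-nt exon, chr15:90782809-90782908, minus strand: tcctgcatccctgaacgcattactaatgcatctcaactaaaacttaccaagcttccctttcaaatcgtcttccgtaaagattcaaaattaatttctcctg
*Dync1i2*, before the 18-nt exon, chr2:71065660-71065759, plus strand: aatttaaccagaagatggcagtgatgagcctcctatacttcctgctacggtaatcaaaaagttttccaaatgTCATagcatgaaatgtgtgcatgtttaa
*Klc1*, chr12:113029566-113029665, plus strand: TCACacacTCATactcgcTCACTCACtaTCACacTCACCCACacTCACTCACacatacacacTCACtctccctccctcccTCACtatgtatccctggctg
*Dctn2*, chr10:126707680-126707779, plus strand: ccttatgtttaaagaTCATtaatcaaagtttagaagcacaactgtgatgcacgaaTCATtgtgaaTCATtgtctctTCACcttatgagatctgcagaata
The *Kif1a* stretch holds 5 of these words, *Klc1* 11, *Dctn2* 4, *Dync1i2* 1 and *Kif21a* 0. Among 23239 intronic stretches of 100 nt beside the cassette exons of all genes, 77.3% hold at least 1 word, 8.59% at least 4, 3.05% at least 5 and 0.0559% at least 10. Those stretches lie at a fixed distance from the exons, whereas the printed ones were chosen for their MN tags. For *Klc1* and *Dctn2* the choice ran over the whole gene, so these shares are not a like comparison. Whether NOVA contacts these words was not measured here, and the absence of a word says only that these letters are not in the stretch.

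Motor genes were among the well expressed genes of the cord. They took 1.743% (male) and 1.677% (female) of the reads on genes. Their median RNA level was 12.81 RPKM (reads per kilobase of exon, scaled to the library's reads on genes), against 3.46 over all genes. A mean of at least 1 RPKM was reached by 46 of the 59 genes, and 5 genes stayed below 0.1 RPKM.

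The kinesin-1 heavy chains, the motor subunits that carry much of fast axonal transport, summed to 734 RPKM in the male and 719 in the female library. *Kif5a*, whose mutations cause hereditary spastic paraplegia, led with 384 and 324 RPKM. *Kif5c* had 185 and 206, and *Kif5b*, the member used in most tissues, had 165 and 190. The kinesin light chains link this motor to cargo. *Klc1* had 242 and 252 RPKM and *Klc2* 154 and 140, whereas *Klc4* had 11.2 and 12.7 and *Klc3* 2.73 and 2.21.

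Of the kinesin-2 motors, which drive transport in cilia and axons, *Kif3a* had 56.1 and 64.2 RPKM, *Kif3c* 38.1 and 35.6, and *Kif3b* 12.7 and 12.9. Kinesin-3 carries synaptic vesicle precursors, and its members spanned almost the whole range. *Kif1a* had 246 and 205 RPKM, *Kif1b* 127 and 123, and *Kif1c* 36.7 and 32.5, whereas *Kif14*, needed in cell division, had 0.0369 and 0.0658. In kinesin-4, *Kif21a* had 89.5 and 103 RPKM, *Kif21b* 9.36 and 8.18, and *Kif7*, a regulator of Hedgehog signalling in cilia, 1.52 and 1.67. Kinesin-13 motors take microtubules apart, and only *Kif2a* was abundant, with 22.5 and 24.7 RPKM, while *Kif2b* had no read in either library.

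The 7 mitotic kinesins of other families lay between 0.0615 and 2.33 RPKM, with *Kif20a* (1.54 and 2.33), *Kif22* (1.61 and 1.20) and *Kif11* (0.568 and 0.626) highest. The proliferation markers measured beside them lay from 0.0460 to 0.307 RPKM over 3 genes, below the levels of *Kif20a*, *Kif22* and *Kif11*. Among the remaining kinesins, *Kif26b* had 3.12 and 2.58 RPKM, *Kif19a* 2.15 and 3.00, and *Kif9* 2.01 and 2.08.

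Cytoplasmic dynein-1 was present with all its subunits. *Dync1h1*, the heavy chain with the motor domain, had 103 and 91.6 RPKM. *Dync1li2*, a light intermediate chain that binds cargo adaptors, had 96.2 and 97.2, and *Dync1i1*, an intermediate chain, 76.4 and 76.8. The second intermediate chain, *Dync1i2*, had 34.3 and 34.9. Dynein-2, which works in cilia, was lower, with 12.9 and 13.3 RPKM for *Dync2li1* and 6.93 and 6.24 for *Dync2h1*. The dynein light chains held the highest single level of all motor genes, *Dynll2* with 446 and 416 RPKM. *Dynlrb1* followed with 281 and 322, and *Dynll1* with 159 and 166. *Dynlt1* had only 0.885 and 0.830 RPKM, a value that is uncertain because near-identical copies exist and reads with more than 1 position were removed. The 6 dynactin genes lay within a narrow range, from 35.9 to 124 RPKM in the male library, with *Dctn2* (124 and 113), *Dctn1* (118 and 109) and *Dctn3* (91.4 and 96.3) at the top.

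**Figure D1:**
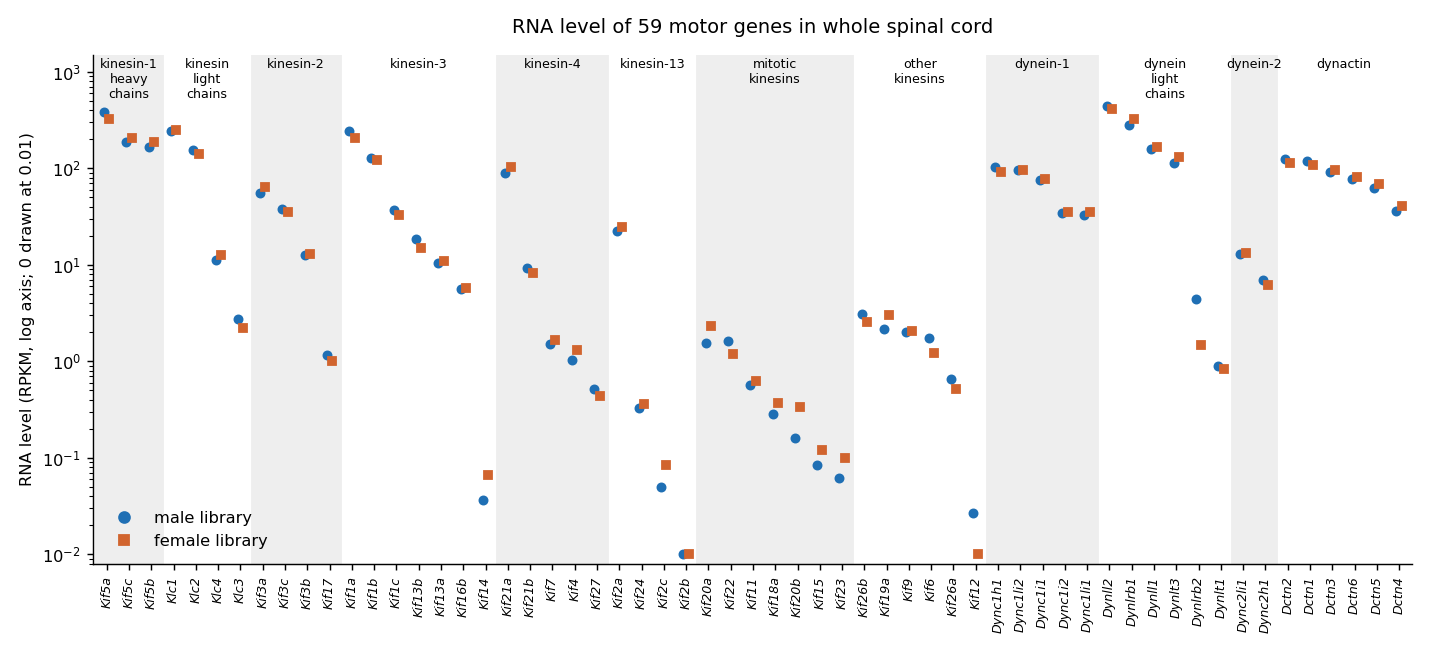
RNA level of the 59 motor genes in the male (circles) and female (squares) WSC library, in RPKM on a log axis, ordered by family and level; values of 0 are drawn at 0.01. The 3 kinesin-1 heavy chains sit between 165 and 384 RPKM and the mitotic kinesins of other families at or below 2.33.

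With 1 library a sex, the male to female ratio has no replicate check and no test. On the log2 scale with 0.1 RPKM added, 2 of the 59 genes differed by more than 1.5-fold, against 8.45% of all genes. *Dynlrb2*, a dynein light chain found in ciliated cells, was counted with 166 reads for the male, or 4.48 RPKM, and with 50 for the female, or 1.48 RPKM, which is a log2 ratio of 1.53. *Kif20b*, a mitotic kinesin, had 66 and 126 reads, a log2 ratio of −0.75. The next largest ratios among genes with at least 50 reads in both were *Kif20a* at −0.56, *Kif6* at 0.48 and *Kif19a* at −0.47. Of 4 markers of ependyma and cilia, 3 were also higher in the male library, summing to 15.8 and 14.3 RPKM with *Ccdc39* nearly equal, and their part in the *Dynlrb2* and *Kif6* ratios was not tested. All 7 motoneuron markers were lower in the male library, summing to 133.6 and 167 RPKM, with *Slc5a7* at 28.0 and 46.9, and their part in the ratios above and in the exon differences between these libraries was not tested.

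The cassette exons of motor genes included many short ones with intermediate use, given here beside all cassette exons as a description with no test. At least 10 junction reads in both libraries were found for 54 entries, 50 distinct exons of 21 genes. The inclusion rate, the share of transcripts with the exon estimated from junction reads, averaged 10 to 90% for 30 of these 54 entries (55.6%), against 27.4% of 9396 entries of all genes. Lengths up to 30 nt, the size of microexons, were found for 11 (20.4%), against 4.35% in all genes. A length that is a multiple of 3, which keeps the reading frame, was found for 40 (74.1%), against 46.3%. These shares count entries, so an exon listed against several partner exons counts more than once, among all genes as well. The 30 entries also include a 94-nt version of a *Dync1i2* exon whose use was not shown, as given below. The motor gene exons also had deeper junctions, with medians of 242 and 226 reads against 86 and 75, and the part of depth in these shares was not tested.

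*Kif1a* carried 2 exons of 27 nt with different use. The exon at chr1:94962129-94962155 was included at 75.9% (95% Wilson interval 73.0 to 78.6%) in the male and 77.0% (73.5 to 80.1%) in the female library. The exon at chr1:94931123-94931149 was included at 11.7% (9.54 to 14.3%) and 16.4% (13.8 to 19.5%). The intervals cover counting error only, since the reads carry no molecular identifiers.

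The low-inclusion *Kif1a* exon has a counterpart in *Kif1b*, and the 60-nt exon of *Dync1i2* has one in *Dync1i1*. These pairs were set side by side after their sequences had been seen. At the same position of the exon, 20 of 27 bases (74.1%) are the same in *Kif1a* and *Kif1b*, and 46 of 60 (76.7%) in *Dync1i1* and *Dync1i2*. The other 10 pairs of short motor gene exons compared, of equal length and from different genes, share 5.56 to 47.6% of bases, most of them with exons not printed here. The inclusion rates within each pair lay far apart. The *Kif1b* exon was included at 0.166% (0.0454 to 0.602%) and 0.0% (up to 0.334%), below the *Kif1a* exon in both libraries. The *Dync1i1* exon was included at 95.1% (90.9 to 97.4%) and 93.9% (89.4 to 96.6%), whereas the *Dync1i2* exon reached 36.8% (32.8 to 40.9%) and 40.2% (35.6 to 45.1%).

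Other short exons sat near the middle of the range. In *Kif21a*, the 21-nt exon had rates of 49.2 and 54.6%, and the 39-nt exon at chr15:90806902-90806940 had 53.9 and 49.6%. A second 39-nt exon of *Kif21a*, at chr15:90779437-90779475, had 67.1 and 64.9% or 60.6 and 51.2%, depending on the partner exon. In *Kif1b*, an 18-nt exon had 56.1 and 51.8% and a 42-nt exon 78.5 and 76.4%. *Dync1li2* included its 42-nt exon at 64.0 and 66.8%, *Klc1* its 51-nt exon at 67.2 and 73.2%, and *Kif13b* its 63-nt exon at 60.2 and 55.8%. *Dctn4*, a dynactin subunit, included a 21-nt exon at 23.2 and 22.2%. *Dync1i2* included its 18-nt exon at 18.7 and 21.8%. A 94-nt version with the same end had computed rates of 11.5 and 14.2%, but no read lay on the junction at its own start in either library. These rates rest on the junction shared with the 18-nt exon, with 57 reads in each library, so use of the 94-nt version was not shown. The 114-nt exon of *Kif2a* was included at 92.6 and 84.9%, and 180-nt and 106-nt versions of an untranslated exon of *Kif1c* at 57.8 and 67.2% and at 51.3 and 58.1%.

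A two-sided Fisher's exact test compared the inclusion and skipping counts of the 2 libraries. It compares the libraries and not the sexes and holds counting error only, with no spread between mice. The inclusion counts tested also hold reads within the exon, whereas the rates printed here use junction reads alone. The test called 6 of the 54 motor gene entries (FDR up to 0.1), against 4.26% of all entries. These were not 6 independent events. The 3 *Dctn6* entries are versions of 54, 113 and 116 nt that share 1 splice site, and all rest on the same junction with 18 reads in the male and 75 in the female library. Their rates were 3.74, 4.80 and 2.53% in the male and 14.0, 15.3 and 12.998% in the female library. The junction on the other side had 9, 17 and 0 reads in the male and 7, 16 and 0 in the female library. The higher female count thus lay on 1 side of the exon only, and higher inclusion of the whole exon was not shown. The 2 *Kif21a* entries are a 129-nt exon at 28.8 and 9.89% (FDR = 0.000613) and a neighbouring 108-nt exon, counted against skipping to that 129-nt exon, at 54.9 and 83.6% (FDR = 0.000451). Both use the junction that had 53 reads in the male and 15 in the female library. Against another partner exon the 129-nt exon was not called, with 47.4 and 39.9% (FDR = 0.486). The 108-nt exon was not called against 2 other partner exons, with 36.6 and 37.1% and with 61.6 and 54.8%. The last of the 6 called entries was the low-inclusion 27-nt exon of *Kif1a* (FDR = 0.0594). The 15-nt exon of *Dctn1*, the large dynactin subunit, had rates of 64.7 and 81.8% and was not called (FDR = 0.109).

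**Figure D2:**
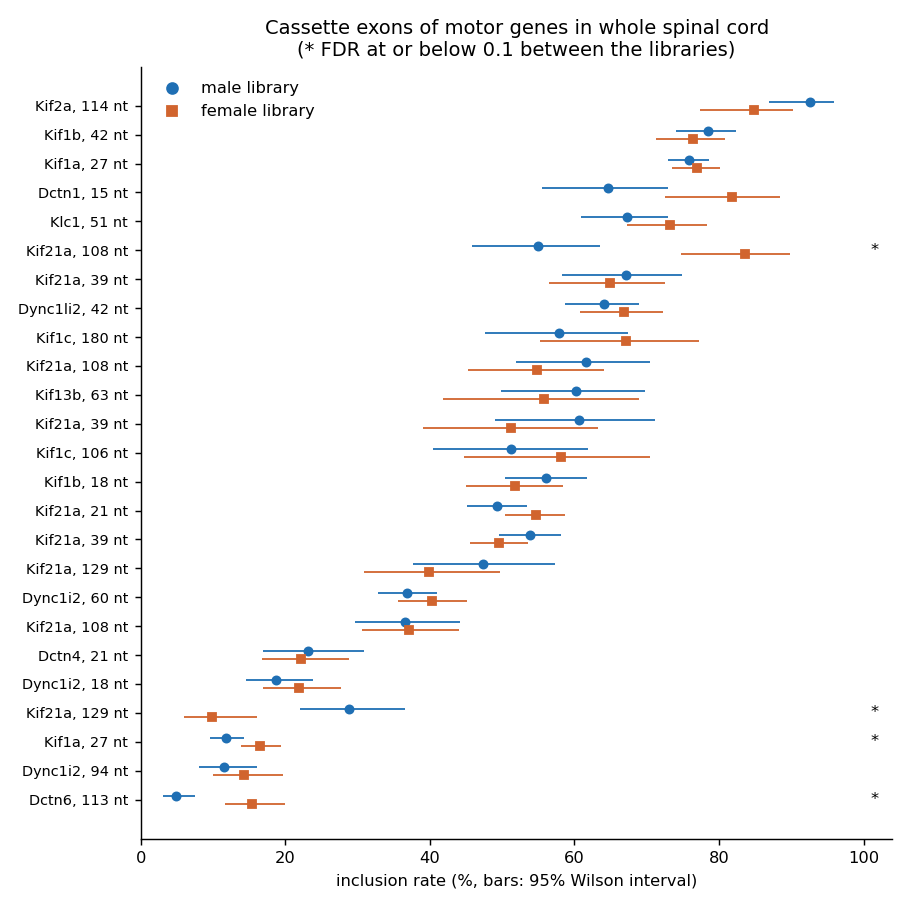
Inclusion rate (%) of the 25 motor gene exon entries with a mean rate of 10 to 90% and most junction reads, in the male (circles) and female (squares) library, with 95% Wilson intervals. Exons listed against several partner exons appear more than once under the same name and length, and stars mark the 4 entries here with an FDR up to 0.1.

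NOVA CLIP tags were next compared between MN and WSC gene by gene, by edgeR's quasi-likelihood test with Benjamini-Hochberg adjustment and calls at FDR up to 0.01. Of the 59 motor genes, 34 had enough tags to be tested, a mean of at least 10 CPM, which are counts of tags scaled to the library's tags in genes. MN tags were higher on 8 and lower on 10 of these, against 20.4% of 7354 genes higher and 24.2% lower. The median log2 difference was −0.09 over the motor genes and −0.03 over all genes. These shares lie near the background, so the motor genes as a group were not set apart. The 25 genes not tested had at most 12 tags in all MN libraries together and at most 248 in WSC.

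The largest excess in MNs was on *Klc1* (mm9, chr12:112997060-113046055, plus strand). Its level ranged from 97.6 to 218 CPM with a median of 164 in the 8 MN libraries, and were 36.6, 34.4, 43.5 and 37.5 in the 4 WSC libraries. Every MN library lay above every WSC library, and the log2 difference was 2.14 ± 0.15 (SE, FDR = 1.90e-21). *Dctn2* (chr10:126703442-126718862, plus strand), the dynamitin subunit of dynactin, had 20.01 to 62.6 CPM (median 44.1) in MNs and 14.5, 14.9, 13.5 and 12.3 in WSC. The groups were again separate, with a log2 difference of 1.77 ± 0.25 (FDR = 3.28e-09), although the MN value rests on 72 tags in all. *Dync1i1* (chr6:5675639-5978039, plus strand) had 300.1 to 633 (median 546) in MNs and 225, 265, 253 and 264 in WSC, again without overlap, and a log2 difference of 1.13 ± 0.11 (FDR = 2.46e-15).

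The other 5 genes that were higher in MNs were all kinesins. *Kif26b* (log2 difference 0.80 ± 0.11), which acts in cell adhesion and polarity rather than as a classical cargo motor, had 279.6 to 339 CPM in MNs and 150.2 to 201 in WSC. *Kif16b* (0.61 ± 0.12), an endosome motor, had 160.1 to 260.3 in MNs and 126 to 140.0 in WSC. Both were without overlap, as were 5 of the 34 tested motor genes in this direction against 7.71% of all genes. *Kif6* (1.09 ± 0.25), *Kif13b* (0.93 ± 0.20) and *Kif13a* (0.62 ± 0.17) overlapped between the groups. Without replicate 4 of line #17, the deepest MN library, the log2 difference was 0.85 for *Kif6* and 0.50 for *Kif13a*, and neither was called. *Kif13a* also lost its call without replicate 3 of line #6 (0.57) and without WSC replicate 4 (0.53).

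The *Kif16b* value was partly made of very short tags. Its densest MN stretch, shown here because of the bases in capitals, lies at chr2:142592297-142592396 on the minus strand.
*Kif16b*: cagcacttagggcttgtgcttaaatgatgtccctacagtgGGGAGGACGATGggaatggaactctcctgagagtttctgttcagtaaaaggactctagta
All 16 MN and 8 WSC tags there were 19 to 23 nt long and lay over the 12 capital bases, which also occur in the 5′ linker given in the labels. With tags of at least 25 nt only, *Kif16b* stayed higher in MNs at a log2 difference of 0.49. With that length limit *Kif21a* (0.36) and *Dync1i2* (0.40) were called higher as well, and *Dynlrb1* (−1.15) was no longer called.

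Among the genes with fewer tags in MNs were several of the most abundant transport motors. *Kif5a* (chr10:126662755-126700136, minus strand) had 254 to 637 CPM (median 314) in MNs and 981, 1006, 783 and 916 in WSC. The groups did not overlap, and the log2 difference was −1.48 ± 0.13 (FDR = 3.50e-16). *Dync1h1* (chr12:111839662-111905155, plus strand) had 258 to 470.2 (median 335) in MNs and 906, 841, 793 and 926 in WSC, a log2 difference of −1.44 ± 0.12 (FDR = 8.51e-18). *Dynll2* (chr11:87793027-87801035, minus strand) had 162 to 265 (median 211) in MNs and 544, 489, 477 and 545 in WSC, a log2 difference of −1.40 ± 0.12 (FDR = 4.04e-17). *Kif1a* (chr1:94912033-94998442, minus strand) had 236 to 340.1 (median 262) in MNs and 564, 581, 480.0 and 525 in WSC, a log2 difference of −0.996 ± 0.11 (FDR = 4.93e-12).

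For all of these every MN library lay below every WSC library, which held for 6 of the 34 motor genes and 14.1% of all genes. The other 2 were *Dync1li2* (log2 difference −0.84 ± 0.17) and *Kif5b* (−0.83 ± 0.18). *Klc2* (−1.06 ± 0.19), *Kif3c* (−1.02 ± 0.14), *Dynlrb1* (−1.22 ± 0.39) and *Dctn4* (−0.80 ± 0.23) were called lower with overlapping groups. *Dynlrb1* rests on 13 MN tags and lost its call without replicate 4 of line #17 (−1.03), replicate 2 of line #6 (−1.15) or WSC replicate 3 (−1.15), and *Dctn4* lost its call without replicate 4 of line #17 (−0.72). Genes for subunits of the same kind of motor or complex were called in opposite directions. Of the kinesin light chains *Klc1* was higher and *Klc2* lower, of dynein-1 *Dync1i1* was higher and *Dync1h1* lower, and of dynactin *Dctn2* was higher and *Dctn4* lower. These contrasts hold for all tags together. Within 1 kind of tag, *Dync1i1* and *Dync1h1* had the same sign, −0.034 and −0.86 in exonic tags and 0.34 and 0.37 in the others. *Dctn1* had 0 to 45.5 CPM in MNs and 37.0 to 54.4 in WSC and was not called (log2 difference −0.54 ± 0.24, FDR = 0.0458).

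The 2 motor genes with most tags were not called, whereas the next 4 by WSC tags, *Kif5a*, *Dync1h1*, *Kif1a* and *Dynll2*, were the lower genes given above. *Kif1b* had 1425 to 1942 CPM in MNs and 1630 to 1948 in WSC (log2 difference −0.11 ± 0.12, FDR = 0.415). *Kif5c* had 925 to 1324 and 1099.9 to 1225 (−0.16 ± 0.11, FDR = 0.232). *Kif21a* had 182 to 490 in MNs and 231 to 277 in WSC (0.35 ± 0.12, FDR = 0.0124), and *Dync1i2* had 136 to 236 and 128 to 165 (0.37 ± 0.13, FDR = 0.0121), both just past the threshold.

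**Figure D3:**
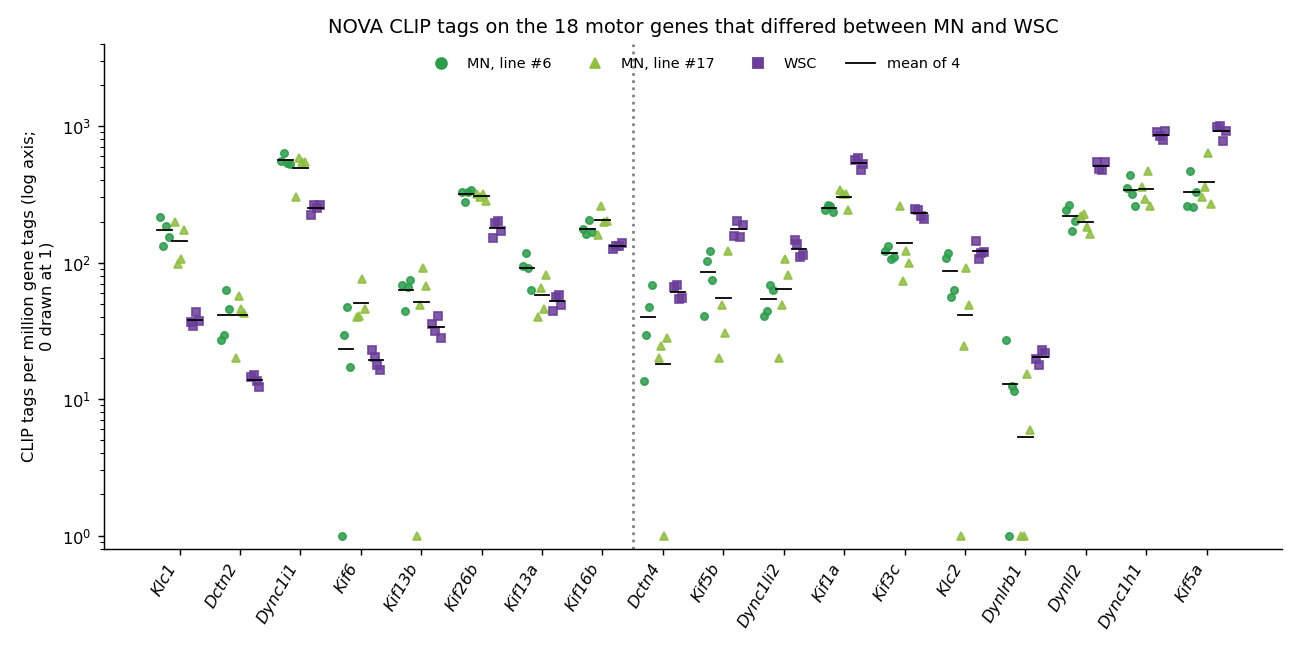
CLIP tags in CPM, on a log axis, in each library of MN line #6 (circles), MN line #17 (triangles) and WSC (squares) for the 18 motor genes called between MN and WSC; black bars are means of 4 libraries, and values of 0 are drawn at 1. The 8 genes left of the dotted line were higher in MNs, led by *Klc1*, and the 10 to its right were lower, with *Kif5a* last.

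The genes called in the 2 directions differed in where their tags lay. On the 8 genes higher in MNs, exonic tags made up 4.88 to 50.6% of WSC tags (median 12.1%), whereas on the 10 lower genes they made up 75.9 to 99.5% (median 95.2%). The whole libraries differed in the same sense, as given above. The comparison was therefore repeated on exonic tags and on the other tags separately, each scaled to its own kind of tag.

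In exonic tags, 4 of the 8 higher genes could be tested and only *Klc1* was called in the same direction (log2 difference 1.87 ± 0.26). *Dync1i1* (−0.034 ± 0.39), *Kif16b* (−0.47 ± 0.34) and *Kif26b* (−0.73 ± 0.51) were not called. All 10 lower genes were tested and had a negative difference, and 5 of them were called: *Kif1a* (−0.99 ± 0.15), *Kif5a* (−0.89 ± 0.15), *Dync1h1* (−0.86 ± 0.15), *Dynll2* (−0.71 ± 0.15) and *Kif3c* (−0.59 ± 0.16). These 10 genes had been chosen on all tags, which in WSC were mostly exonic for them, so the shared sign is not a separate result. Of all 29 motor genes tested in exonic tags, 2 were called higher and 7 lower, against 9.68% of 6728 genes higher and 15.9% lower. Exonic tags alone also called *Dynlt3*, a dynein light chain, higher (0.63 ± 0.14), and *Dynll1* (−1.99 ± 0.61) and *Dync2h1* (−0.93 ± 0.30) lower. *Dynll1* had only 5 tags of any kind in all MN libraries together, so its value is uncertain.

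In tags outside annotated exons, all 8 higher genes were tested and 3 were called in the same direction: *Klc1* (1.87 ± 0.17), *Dctn2* (1.04 ± 0.25) and *Dync1i1* (0.34 ± 0.11). *Kif1b* (0.46 ± 0.13) and *Kif5c* (0.50 ± 0.12) were called higher here. Of the 10 lower genes 7 were tested and none was called lower (8 of the 28 tested motor genes had an unadjusted p under 0.05, edgeR). *Kif5a* (0.52 ± 0.34), *Dync1h1* (0.37 ± 0.30), *Kif1a* (0.25 ± 0.15), *Dync1li2* (0.44 ± 0.41), *Kif5b* (0.45 ± 0.30) and *Kif3c* (0.058 ± 0.30) had a positive difference, without a call. Of all 28 motor genes tested in these tags, 5 were called higher and 0 lower, against 6.05% of 6245 genes higher and 8.86% lower. Of the 8 genes higher in MNs, *Klc1* was the one called higher with all tags, exonic tags and other tags, while *Dctn2* had too few exonic tags for a test.

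**Figure D4:**
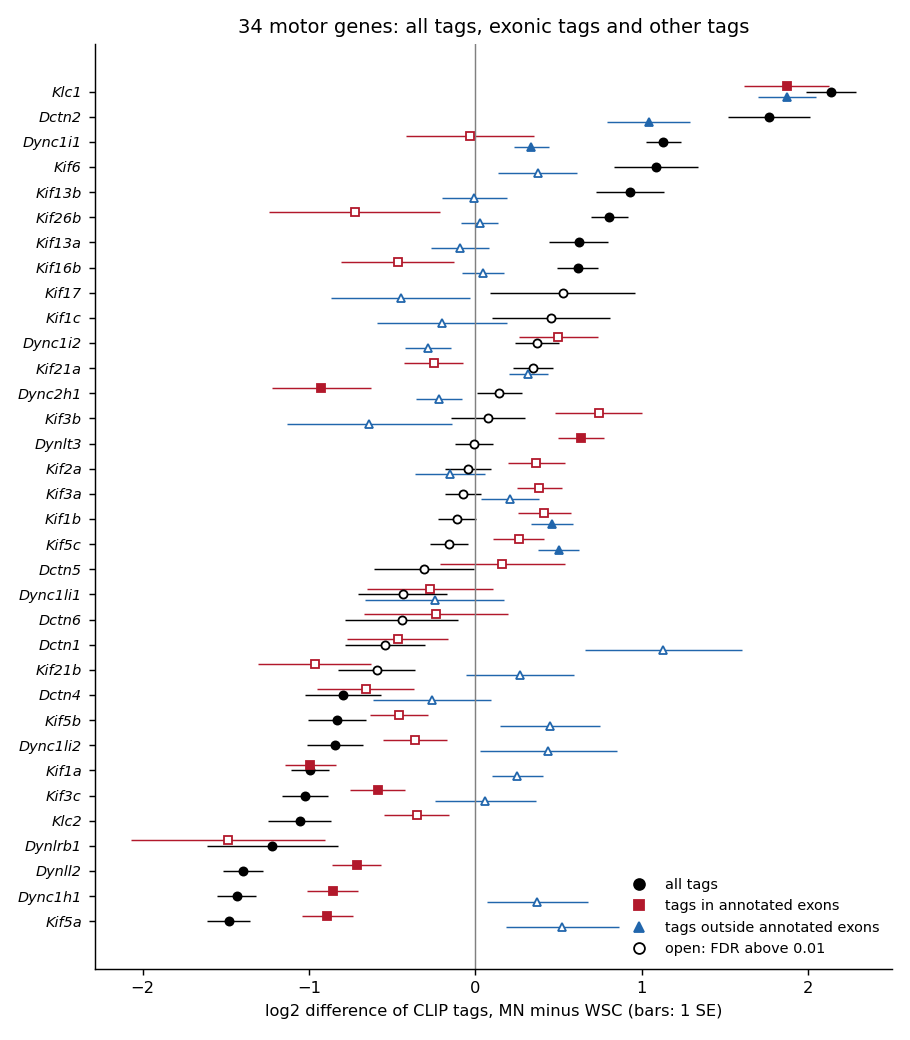
Log2 difference of CLIP tags (MN minus WSC, bars 1 SE) for the 34 tested motor genes, from all tags (circles), tags in annotated exons (squares) and other tags (triangles), with open symbols where FDR was above 0.01. *Klc1* lies at 2.14, 1.87 and 1.87, whereas *Kif5a* lies at −1.48 and −0.89 in the first 2 and at 0.52 in the last.

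The densest part of *Klc1* in MNs lay in an intron. The 1 kb at chr12:113029081-113030080, which holds the *Klc1* sequence printed above, held 61 of the 257 MN tags of the gene (23.7%) in 7 MN libraries and 46 of the 539 WSC tags (8.53%) in 4 WSC libraries. It lies upstream of the 51-nt cassette exon at chr12:113031860-113031910. The printed 100 nt, with their 11 words, held 7.39% of MN and 1.67% of WSC tags of the gene. In *Dctn2*, 33 of 72 MN tags (45.8%) and 42.9% of WSC tags fell in 1 kb of an intron at chr10:126707242-126708241, so the tags of both groups lay at the same place. In *Dync1i1*, with its long introns, the densest 1 kb held 3.92 and 2.58%.

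On the lower genes the tags lay in exons. The densest 1 kb of *Kif5a* in WSC lay in untranslated sequence and held 46.4% of MN and 46.6% of WSC tags. That of *Dync1h1* lay in coding sequence, with 33.3 and 33.5%, and that of *Dynll2* ran over coding and untranslated sequence, with 60.5 and 57.5%. For these 3 genes the share within the gene was nearly the same in both groups while the number of tags was lower in MNs. In *Kif1a* the corresponding untranslated 1 kb held 9.73% of MN and 21.0% of WSC tags, and in *Kif5b* a coding 1 kb held 1.30% (2 tags) and 30.1%.

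Exonic tag density was set beside the RNA level. Over the 58 motor genes with both values, the exonic WSC level in CPM per kb had a Spearman correlation of 0.879 with the WSC RNA level, and the MN level 0.829. These are descriptions across genes, which share libraries and annotation. Genes of similar RNA level still differed. *Dynlt3* had 186 ± 11.7 (SD, n = 4) exonic WSC CPM per kb at a mean of 122 RPKM, whereas *Dctn2* had 1.15 ± 0.339 at 119 RPKM. *Dynll2* had 204 ± 14.3 at 431 RPKM, and *Klc1* 6.51 ± 0.778 at 247 RPKM.

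Tags in the 400 nt of intron before and after each cassette exon were tested against the other tags of the same gene, with libraries as replicates. Of 12 motor gene windows with at least 20 tags, 5 held a larger share in MNs and none a smaller share (FDR up to 0.1, edgeR; 5 with an unadjusted p under 0.05). The background was 20.7% of 802 windows higher and 4.61% lower.

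The window after the low-inclusion 27-nt exon of *Kif1a* (chr1:94930723-94931122) held 3, 2, 3 and 0 tags in line #6, 1, 8, 0 and 6 in line #17, and 10, 15, 18 and 8 in WSC. That was 23 of 401 MN tags of the gene (5.74%) and 51 of 7584 WSC tags (0.673%), a log2 difference of 3.15 ± 0.45 (FDR = 4.42e-10). With the MN libraries of the WSC barcode form alone, the MN share was 9 of 309 tags (2.91%) and the log2 difference 2.12 ± 0.65 (FDR = 0.0151). The window after the 108-nt exon of *Kif21a* (chr15:90782742-90783141) held 1, 2, 4 and 3 tags in line #6, 0, 1, 0 and 10 in line #17, and 1, 7, 3 and 0 in WSC, or 4.17 and 0.314% of the gene's tags (3.65 ± 0.52, FDR = 5.00e-10). With the WSC barcode form alone this log2 difference was 3.66 ± 0.59. In both windows the share was above the WSC share in both lines taken alone.

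The window before the 18-nt exon of *Dync1i2* (chr2:71065484-71065883) held 0, 0, 3 and 2 tags in line #6, 2, 0, 1 and 7 in line #17, and 2, 4, 6 and 2 in WSC. Its log2 difference was 2.93 ± 0.57 (FDR = 1.58e-05). The window before the 94-nt version largely repeats the same bases, with 12 MN and 9 WSC tags (3.15 ± 0.65), so they are not 2 separate results. The window after the 114-nt exon of *Kif2a* held 6 MN and 17 WSC tags (1.72 ± 0.76, FDR = 0.0950). It lost its call when any of 6 single libraries was left out, with log2 differences from 1.28 to 2.04, and it had too few tags for a test without WSC replicate 2 or 3.

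Counts were small, and libraries differed. The mean share per library was 7.68 ± 7.66% (SD, n = 8) in MNs and 0.708 ± 0.156% (n = 4) in WSC for *Kif1a*, and 4.46 ± 4.87% and 0.251 ± 0.262% for *Kif21a*. With every library weighted alike, a two-sided exact permutation test gave p = 0.0606 for each of these (0.151 after adjustment over the 5 windows). The same exact permutation test gave p = 0.141 (adjusted 0.235) for the 18-nt *Dync1i2* window, p = 0.283 (adjusted 0.354) for the 94-nt version and p = 0.412 for *Kif2a*. None of the 5 windows passed that test, and between 2 and 4 MN libraries had no tag in each.

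Measured against tags outside exons only, a denominator chosen after the data were seen, 4 of the 12 windows were called higher and none lower, against 5.03 and 8.2% of 756 windows. *Kif21a* kept a log2 difference of 2.85 ± 0.51 and the 18-nt *Dync1i2* window 2.74 ± 0.56. *Kif1a* had a smaller one, 1.06 ± 0.42 (FDR = 0.0883), and *Kif2a* was not called (1.01 ± 0.74). Inclusion of these exons in MNs was not analysed here.

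**Figure D5:**
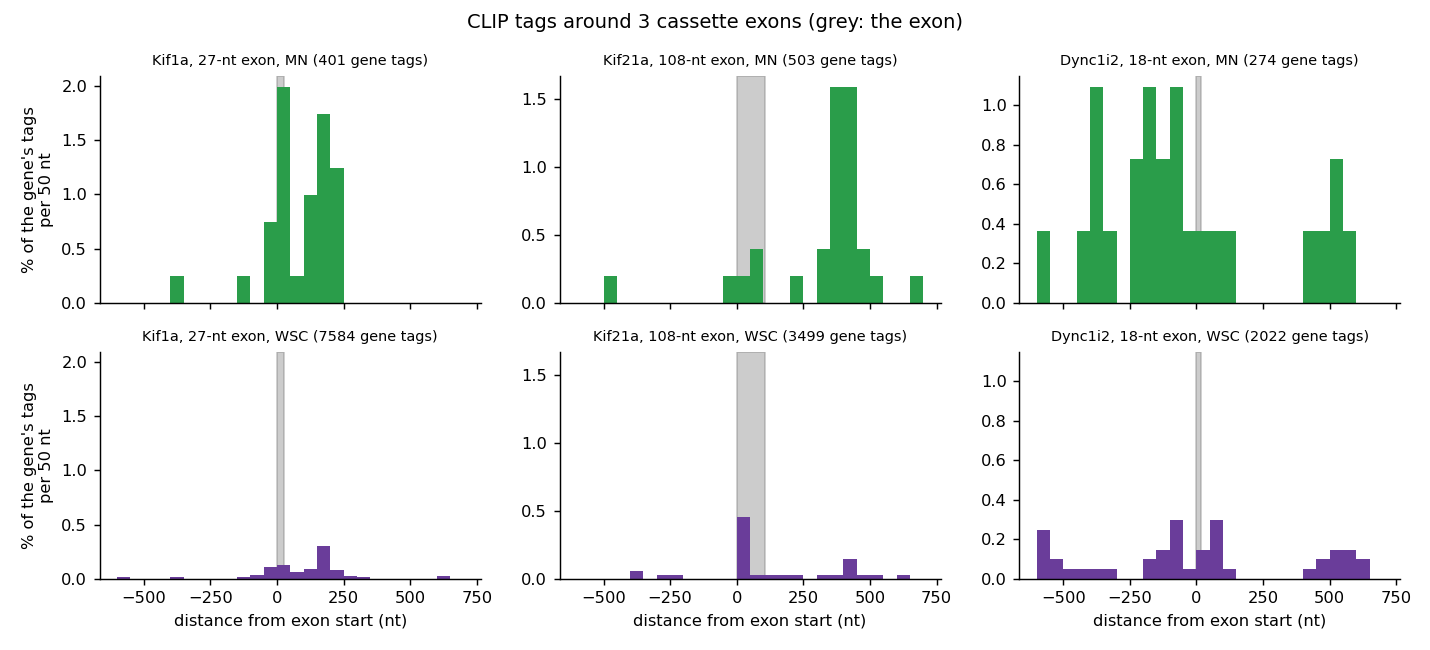
CLIP tags around 3 cassette exons, as a percent of the gene's tags per 50 nt, against distance from the exon start (nt, grey band the exon), for MN (top) and WSC (bottom) with the same axis within a gene. The *Kif1a* tags of both groups gather after the 27-nt exon, with 13 MN and 31 WSC tags in the 100 nt printed above. The MN tags of *Kif21a* gather about 400 nt from the start of the 108-nt exon. As a percent of the gene's tags, the highest WSC bar of each gene stays lower than the highest MN bar. The panels rest on 23 and 21 MN tags in the windows after those exons.

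Lines #6 and #17 were compared with each other by the same edgeR test. None of 7203 genes was called (0% at FDR up to 0.01, 189 with an unadjusted p under 0.05, and 0 by DESeq2), and none of the 32 motor genes tested, of which 1 had an unadjusted p under 0.05. Leaving out replicate 4 of line #17 gave 6 calls among all genes and leaving out any other library at most 1, none of them a motor gene. *Klc1* had means of 172 ± 36.9 (SD, n = 4) CPM in line #6 and 144 ± 50.05 in line #17, both above the WSC mean of 38.0 ± 3.90.

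The adaptors and other partners of the motors were measured as a separate list of 27 genes, of which 20 were tested in the CLIP comparison. Against 20.4% of all genes higher and 24.2% lower, MN tags were higher on 1, *Bicd1* (log2 difference 0.46 ± 0.11), a dynein adaptor. They were lower on 6: *Mapk8ip2* (−1.53 ± 0.13) and *Mapk8ip3* (−0.93 ± 0.17), scaffolds that bind kinesin light chains, *Spag9* (−0.66 ± 0.11), *Kifap3* (−0.44 ± 0.11), the kinesin-2 accessory subunit, *Kifc2* (−1.52 ± 0.43) and *Actr1a* (−0.77 ± 0.23), which forms the dynactin filament. The median log2 difference of the list was −0.19, beside −0.03 over all genes. In RNA-seq 26 of the 27 had at least 1 RPKM, with *Mapk8ip1* highest at 142 and 140.3 RPKM.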

How the data were processed

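The authors mapped CLIP reads to mm9 with Novoalign and collapsed duplicates by random barcodes. The deposited BED files list 1 unique tag per row, with a score per tag that was not used here. One sample's processing note also lists mm10, but the coordinates fit mm9. For RNA-seq, the authors aligned reads trimmed to 74 nt with OLego, removed ambiguous reads, and deposited read counts per gene, RPKM values and junction read counts per cassette exon from Quantas, separately for each mouse. The inclusion rate was recomputed from junction reads, averaging the 2 inclusion junctions and dividing by the sum of this average and the skipping reads.

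Each tag was assigned by its midpoint and strand to the GENCODE vM1 gene it lay in, and tags in more than 1 gene were left out. Genes with a mean of at least 10 CPM were tested with edgeR 4.0.16 (TMM scaling, quasi-likelihood) at an FDR up to 0.01. Windows of 400 nt with at least 20 tags were tested at an FDR up to 0.1, and exons with at least 10 junction reads by Fisher's exact test. RNA ratios used a pseudocount of 0.1 RPKM. DESeq2 1.42.0 was an alternative, and other settings are given with the dependence on processing. R 4.3.3, Python 3.11.15, pandas 2.3.3, NumPy 2.4.6, SciPy 1.17.1, pysam 0.24.0 and matplotlib 3.10.9 were used. The scripts were tested on simulated data.

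Named were the 3 most abundant members of each role, the called genes, exons and windows, exons with a mean inclusion of 10 to 90%, the 5 largest sex ratios, and a few genes whatever their result. The rule for members reads gene names alone, but the choice of this gene family and of the lists was made with earlier results of these data known. P-values from edgeR and DESeq2 measure the spread between libraries, whereas Fisher's exact tests and the intervals cover counting error only. The paper describes the CLIP libraries as biological replicates, and their spread may be partly technical.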

Additional observations from a re-analysis of the deposited data

Results flagged for a closer look

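For named genes, 63 groups of 4 libraries were examined for a library far from the other 3. In 2 of these groups a library stood apart, which is not more than the about 1 in 20 that chance alone gives. *Dync1i1* had 300.1 CPM of CLIP tags in replicate 1 of line #17, from 15 tags, below 545.7 to 585.6 in the other 3 libraries of that line. *Kif6* had 75.84 in replicate 3 of line #17, from 5 tags, above 40.01 to 45.59 in the other 3.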

How the results depend on the processing

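Of the settings tried, the kind of tag changed the gene counts most. The 8 higher and 10 lower motor genes became 2 and 7 with exonic tags and 5 and 0 with tags outside exons. With exonic tags the sign turned for *Dync1i1* (−0.034), *Kif26b* (−0.73), *Kif16b* (−0.47) and *Kif21a* (−0.25). With tags outside exons it turned for *Kif13b* (−0.0071), *Kif13a* (−0.093), *Dync1i2* (−0.28), *Kif5a* (0.52), *Dync1h1* (0.37), *Kif3c* (0.058), *Kif1a* (0.25), *Dync1li2* (0.44), *Kif5b* (0.45) and *Dctn1* (1.13). The cause was not tested. Leaving out 1 library gave 6 to 10 higher and 8 to 11 lower motor genes, and DESeq2 gave 8 and 10. Over all genes, 1501 higher and 1778 lower calls became 651 and 1068 with exonic tags, 378 and 553 with other tags, 1178 and 2602 without a filter on low counts, and 1277 and 1311 with edgeR's own filter.

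Of the 5 windows, 3 were called with 200 nt, where the *Kif21a* window and the 94-nt *Dync1i2* window had too few tags for a test, and 1 with at least 50 tags, where fewer windows were tested. Further, 2 were called with line #6 alone, 4 with line #17 alone, 4 with the WSC barcode form alone (without *Kif2a*, 1.52) and 3 to 5 without single libraries. That barcode form gave 9 higher and 9 lower motor genes, losing *Dynlrb1* (−1.10) and *Dctn4* (−0.63) and adding *Kif21a* (0.44) and *Dynll1* (−2.02). The added *Dynll1* call is uncertain, since this gene had 5 tags in all MN libraries together. The RNA count of 2 genes past 1.5-fold became 1 with a pseudocount of 1 RPKM and 1 among genes of at least 1 RPKM, and the median RPKM was 12.74 and 12.88 in the single libraries. The 6 exon calls stayed 6 with junction reads alone and with at least 20 reads.

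No label used here ties same-numbered libraries to 1 animal or batch, although numbers 1 and 2 mark the shorter barcode form in both MN lines. Correlations of same-numbered deviations ran from −0.127 to 0.113 between MN and WSC. Between the lines they ran from 0.10 to 0.351, but replicate 3 of line #6 correlated best with replicate 4 of line #17 (0.273). With the replicate number as a block, 7 motor genes were higher and 8 lower, and *Kif13a* (0.60), *Dynlrb1* (−1.28) and *Dctn4* (−0.78) were not called. Between the lines the block called 0 motor genes. Chosen after seeing the data were the windows of 1 line alone, the windows against tags outside exons and the limit of 25 nt on tags. MN libraries of few tags limit the lowest genes, since 25 members could not be tested.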
